A study of Mus musculus with 36 samples.

Results

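DNA methylation was described at 9 genes of the Sonic hedgehog pathway (Shh, Gli1, Gli2, Gli3, Ptch1, Smo, Sufu, Hhip and Foxa2) in the brains of mouse embryos that carried 2, 1 or no intact copies of Tet1. The members were all CpG sites inside the gene body of each gene (mm10, GENCODE annotation) and within 2 kb on each side, whatever their level. They are 9 of 21938 annotated protein-coding genes, and all 9 had at least 1 region with enough covered CpGs to be tested, as had 16523 genes in all. The 9 genes held 865 CpGs with 5 or more reads in each of the embryos used.

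SHH is a secreted ligand released by the notochord under the developing neural tube and by the floor plate at the tube's ventral midline, and it sets ventral cell identity there. Its receptor PTCH1 holds the membrane protein SMO inactive. When SHH binds PTCH1, SMO is released and the GLI transcription factors act on target genes, with GLI1 and GLI2 mainly as activators and GLI3 mainly as a repressor. SUFU binds and restrains the GLI proteins, HHIP is a membrane protein that sequesters the ligand, and FOXA2 is the transcription factor that specifies the floor plate. Gli1, Ptch1 and Hhip are themselves targets of the pathway, and gain of its activity can disturb closure of the neural tube in the mouse. TET1 oxidises methylated cytosine, a step towards its removal. Oxidative bisulfite sequencing reads 5-methylcytosine without its hydroxymethylated form, so the levels below are of true 5-methylcytosine.

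The libraries were made by oxidative bisulfite sequencing of restriction fragments (MspI and TaqI) from single brains at E11.5, dissected from forebrain to hindbrain above the otic vesicle. All embryos came from heterozygous dams of the 129S6.Cg Tet1tm1Koh strain, in which a cassette inserted at the first coding ATG abolishes full-length Tet1. The paper still detected a short Tet1 transcript in KO brains at E11.5, and found no TET1 protein by Western blot in WT or KO brains. Dams were kept on a diet with 30 (excess), 3 (control) or 0.1 (depleted) ppm folic acid, and all 3 diets also contained the antibiotic SST. The 35 embryos used fell into 9 groups. On 30 ppm there were 3 wild type (WT), 5 heterozygous (HET) and 6 knockout (KO) embryos. On 3 ppm there were 4 WT, 3 HET and 5 KO, and on 0.1 ppm 2 WT, 2 HET and 5 KO embryos. These numbers follow the deposited labels. The study's own sample list differs from them in a single entry, an embryo labelled KO on the excess diet with inHB, which the list gives as HET with a brain malformation. The remaining HET library on 0.1 ppm, the shallowest of the 36, was left out by the study and is left out here. Among the KO embryos, 7 were scored as normal, 5 had a neural tube defect (NTD) and 4 carried the label inHB, which the study lists as a brain malformation and the labels do not spell out. Another inHB embryo was WT and 2 were HET, whereas every NTD embryo was KO. KO embryos had been matched by somite count with a WT or HET littermate of the same sex, so the embryos are not a random draw from the litters.

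Libraries held from 23.2 M to 197 M methylation calls, and the mean level over CpGs was 31.2 to 32.4% in WT, 31.8 to 32.7% in HET and 31.6 to 34.8% in KO embryos. Promoters of the neural markers Sox1, Sox2, Sox3, Pax6 and Nes were measured, and 4 of these 5 had WT means under 1% (0.506 to 0.855%), with X-linked Sox3 at 15.7%. None of the 5 was called between KO and WT. Of the 21 promoters looked up as markers of other cells or as genes methylated in somatic tissue, 12 were measured (3 of 5 for mesenchyme and neural crest, 1 of 6 for blood, 1 of 3 for endothelium, 4 of 4 for surface ectoderm and 3 of 3 methylated in somatic cells). Sox10 of the neural crest (59.3% in WT, 81.9% in KO), Krt5 of surface ectoderm (82.1% and 87.5%), Ddx4 (63.9% and 71.8%) and Mael (84.1% and 88.3%) were called higher in KO. The others of the 12 were not called. Of these, the KO mean was below the WT mean at Pdgfra and Dazl and above it at the rest. Since 29.9% of all promoters were called higher in KO, nothing about these cell types is read from the 4 calls. Brains were sequenced as bulk tissue, so a shift in the mixture of cells and a shift of the level within cells cannot be told apart for any gene described here. Gli1 lies on chromosome 10, as Tet1 does, 64.4 Mb away, and whether linked sequence of another strain contributes to its levels was not tested.

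The genotype labels were checked at the measured CpG of Tet1 whose level differed most between the KO and WT medians (mm10 chr10:62884019, chosen after its values were seen). It was methylated at 0 to 7.32% in 7 WT, 8.33 to 47.4% in 10 HET and 69.6 to 100% in 15 KO libraries. These ranges leave out 4 libraries, whose levels lay outside the range given for their label. The library labelled KO on 30 ppm, replicate 1, was at 45% of 20 reads (95% interval by Wilson's method 25.8 to 65.8%). This is the embryo that the study's sample list gives as HET, and its mean level over all CpGs (31.6%) lay below that of the other 15 KO libraries (33.7 to 34.8%). That mean also lay below the 10 HET libraries (31.8 to 32.7%) and within 7 of the WT libraries (31.2 to 31.8%). Replicate 2 of the libraries labelled WT on 30 ppm was at 36.36% of 33 reads (22.2 to 53.4%), and that labelled WT on 0.1 ppm, replicate 2, at 40% of 15 reads (19.8 to 64.3%). At this Tet1 CpG all 3 lay within the HET range. The mean levels of the 2 WT libraries over all CpGs (32.4 and 32.0%) lay above those of the other 7 WT libraries (31.2 to 31.8%) and within the range of the HET libraries (31.8 to 32.7%). The HET library on 0.1 ppm, replicate 1, was at 69.2% of 13 reads (42.4 to 87.3%), just under the KO range, while its mean level over all CpGs (32.4%) lay within that of the other HET libraries. All 4 were kept under their labels. The main results that rest on the first 3, called the doubted libraries here, are also given without them. Since they were singled out by methylation, at a CpG chosen for its difference, leaving them out can widen differences and reduce overlap by construction. Leaving out the HET library on 0.1 ppm, replicate 1, changed no count of calls in HET against WT or KO against HET. The low end of the HET range came from the library labelled HET on 30 ppm, replicate 1, at 8.33% of 24 reads (2.32 to 25.8%). The next HET level was 20%. The mean level of that lowest library over all CpGs (31.8%) was the lowest of the HET libraries and lay within the range of the 7 WT libraries. It was not among those set apart.

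The pathway loci were divided into promoters (1 kb on each side of the gene's 5′ end), bodies (the rest of the gene) and flanks (the rest of the 2 kb on each side). A level is the percentage of methylated reads over all CpGs of a region in 1 embryo. Regions with fewer than 3 CpGs were not tested, which left 19 of 27 regions. The promoters of Shh (2 CpGs) and Gli1 (1 CpG) were too sparsely covered, so 7 promoters, 9 bodies and 3 flanks (Smo, Sufu and Foxa2) remained. The same loci were also cut into fixed tiles of 1 kb, of which 59 were tested. Differences between groups are given in percentage points from a fit that accounts for diet, with the standard error (SE). A region was called when the two-sided p of the quasi-binomial test, adjusted by Benjamini and Hochberg over every region of the genome, was under 0.05. Tiles also had to differ by at least 10 points.

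The sequences below show the 4 tiles that were called in KO against WT, the Hhip promoter for contrast with the Hhip tile 1.1 kb into the gene, and a stretch upstream of Foxa2 that holds a single CpG with a large difference. They are read 5′ to 3′ on the strand of the gene from the RefSeq assembly GRCm38.p6 (mm10), which is the C57BL/6J reference and not the 129S6 genome. Capitals mark the CpGs whose methylation was measured.
Shh, coding exon, chr5:28461381-28461436, minus strand: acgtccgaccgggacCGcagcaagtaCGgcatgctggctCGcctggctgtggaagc
Hhip, intron, chr8:80056833-80056924, minus strand: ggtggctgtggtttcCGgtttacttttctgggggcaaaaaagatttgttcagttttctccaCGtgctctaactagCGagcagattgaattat
Hhip, promoter, chr8:80057912-80058207, minus strand: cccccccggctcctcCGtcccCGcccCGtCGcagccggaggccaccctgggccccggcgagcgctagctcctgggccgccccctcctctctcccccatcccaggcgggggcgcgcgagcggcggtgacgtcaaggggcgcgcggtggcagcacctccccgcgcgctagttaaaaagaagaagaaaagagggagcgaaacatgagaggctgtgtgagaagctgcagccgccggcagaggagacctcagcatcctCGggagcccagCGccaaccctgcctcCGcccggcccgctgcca
Gli1, coding exon, chr10:127331344-127331512, minus strand: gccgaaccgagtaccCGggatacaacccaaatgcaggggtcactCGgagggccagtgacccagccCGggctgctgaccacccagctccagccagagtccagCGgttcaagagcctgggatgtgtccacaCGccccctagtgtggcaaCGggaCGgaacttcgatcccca
Gli3, intron, chr13:15571004-15571056, plus strand: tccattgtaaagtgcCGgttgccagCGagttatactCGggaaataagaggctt
Foxa2, upstream, chr2:148048229-148048310, minus strand: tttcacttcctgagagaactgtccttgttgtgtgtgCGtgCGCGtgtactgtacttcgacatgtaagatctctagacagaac

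In the WT brain most of the measured CpGs of the pathway were free of methylation. Coverage was uneven: the 266 kb of the Gli3 body held 36 of them and the 91.2 kb of the Hhip body 8. Of the 865 CpGs, 652 (75.4%) had a WT mean under 2%, against 56.2% of all 921363 autosomal CpGs measured. Another 41 lay between 2 and 20%, 90 between 20 and 80%, and 82 above 80%. All 7 tested promoters had low WT means, from 0.387% at Sufu to 2.05% at Foxa2. The bodies differed widely. Foxa2 (0.916%) and Shh (1.07%), the shortest of the 9 genes, were unmethylated along the body, and Ptch1 was at 8.08%. Gli1 (29.4%), Gli3 (36.68%), Hhip (39.6%) and Gli2 (47.9%) were intermediate, whereas Sufu (75.2%) and Smo (91.6%) were mostly methylated. These are averages over unlike sites. Of the 129 CpGs of Gli2, promoter included, 76 were under 2% in WT, 14 between 20 and 80% and 36 above 80%. Of the 195 of Ptch1, 166 were under 2% and 21 between 20 and 80%. WT ranges overlapped between Foxa2 (0.553 to 1.46%) and Shh (0.863 to 1.25%), and along the neighbours Gli1 (26.7 to 34.07%), Gli3 (28.7 to 43.0%), Hhip (32.8 to 48.8%) and Gli2 (45.7 to 51.5%). Ptch1, Sufu and Smo overlapped with no neighbour.

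KO embryos had higher methylation than WT embryos in the bodies of 6 of the 9 genes and at the promoters of 2 of 7. Over all diets, 10 of the 19 regions were called between the 16 KO and 9 WT embryos, and all 10 were higher in KO. The difference was positive in 18 of 19 regions, with a median of 0.87 points beside 1.13 points over all regions of the genome. By kind, 2 of 7 promoters, 6 of 9 bodies and 2 of 3 flanks were called higher, where 29.9% of all promoters, 49.8% of all bodies and 39.2% of all flanks were called higher genome-wide. With so few regions, nothing particular to the pathway is read from these counts. Without the 3 doubted libraries, 10 regions were called, of which 9 were shared, beside 43.6% of all regions called in either direction. The Gli3 body was gained (6.22 ± 1.49 points, adjusted p = 0.017), and the Ptch1 promoter was lost.

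The ligand and its floor plate regulator gained little in absolute terms. The Shh body was at 0.863, 1.05 and 1.25% in WT (lowest, median, highest) and at 0.894, 1.44 and 1.98% in KO embryos. The groups overlapped, although 13 KO embryos exceeded the highest WT value. The difference was 0.36 ± 0.11 points (adjusted p = 0.00101), and 0.41 ± 0.12 points without the 3 doubted libraries. It fell to 0.09 points (adjusted p = 0.33) when only CpGs covered at least 10 times were used. The gain was uneven along the gene: the tile of 3 CpGs printed above was called, and the remaining 5 tested tiles of Shh differed by -0.19 to 0.29 points with none called. Those 3 CpGs are part of the Shh body, so the 2 calls are not separate results. The tile was not testable at a coverage of 10. At Foxa2 the promoter was at 1.44, 1.87 and 2.82% in WT and at 1.57, 2.87 and 3.74% in KO embryos, 10 of which exceeded the highest WT value. Its promoter rose by 0.87 ± 0.24 points (adjusted p = 0.0032), its body by 0.48 ± 0.12 points (adjusted p = 0.00231) and its flank by 1.63 ± 0.62 points (adjusted p = 0.00737). Without the 3 doubted libraries these were 0.96 ± 0.22, 0.41 ± 0.14 and 1.83 ± 0.71 points, all called. With CpGs covered at least 10 times the flank difference was -0.36 points (adjusted p = 0.54), and with CpGs weighted equally the promoter difference was 0.75 points (adjusted p = 0.064). In a promoter window from 2 kb before to 0.5 kb after the start it was 1.54 ± 0.44 points (adjusted p = 0.000991). A CpG 1.3 kb upstream of Foxa2, singled out after its values were seen, had means of 4.40% in WT, 7.32% in HET and 18.6% in KO. In the printed sequence the CpGs next to it on the 5′ and 3′ side were at 7.33% and 5.21% in KO. The CpG at 18.6% is among the 9 CpGs of the Foxa2 flank, and the flank was not tested without it.

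At the genes of the receptor Ptch1 and the transducer Smo, the average over a region changed little. For comparison, the median difference over all gene bodies was 2.66 points. Of the 21 Ptch1 CpGs between 20 and 80% in WT, 20 were higher in KO, 5 of them by 10 points or more. Of its 166 CpGs under 2%, 71 were higher and none gained 10 points. The Ptch1 promoter was at 0.416, 0.667 and 0.826% in WT and at 0.442, 0.942 and 1.39% in KO embryos, a difference of 0.31 ± 0.10 points (adjusted p = 0.0418). In that other promoter window, which held 7 CpGs, it was 1.43 ± 0.23 points. The call was lost with litter as a block (0.32 ± 0.10 points, adjusted p = 0.0668) and with CpGs weighted equally (adjusted p = 0.060). It was also lost when 1 of 10 single embryos was left out, with adjusted p up to 0.0903. These were WT replicate 2 and KO replicates 4 and 6 on 30 ppm, WT replicates 2 and 3 and KO replicates 1, 2 and 5 on 3 ppm, and WT replicate 2 and KO replicate 5 on 0.1 ppm. The Ptch1 body, at 8.08% in WT and 9.36% in KO, did not pass the test over diets (1.27 ± 0.61 points, adjusted p = 0.371), but did so with litter as a block (1.51 ± 0.50 points, adjusted p = 0.0222). The Smo promoter was at 0.602% in WT and 0.684% in KO (adjusted p = 0.384). In the Smo body WT embryos were at 90.8, 91.5 and 92.7% and KO embryos at 90.8, 93.7 and 97.4%, a difference of 2.21 ± 0.63 points (adjusted p = 0.00612). The upstream flank of Smo, with 3 CpGs, rose by 3.94 ± 1.25 points (adjusted p = 0.00429). Without the 3 doubted libraries the Smo body and flank differed by 2.14 ± 0.75 and 4.39 ± 1.44 points and kept their calls, and the Ptch1 promoter differed by 0.32 ± 0.11 points (adjusted p = 0.0544). With the other promoter window, the Smo body difference was 1.66 points and was not called (adjusted p = 0.78).

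Hhip and Sufu showed larger gains in the gene body than Ptch1 and Smo. Both are negative regulators, but so is Ptch1, and the body of the activator Gli1 gained about as much as that of Sufu. The Hhip body was at 32.8, 37.8 and 48.8% in WT, at 33.8, 42.0 and 49.7% in HET and at 39.1, 54.1 and 63.0% in KO embryos. The KO and WT ranges overlapped, and 12 of the 16 KO values exceeded the highest WT value. The difference was 14.2 ± 2.51 points (adjusted p = 2.71e-05), from 8 CpGs, among them the 3 of the printed intron tile. Without the 3 libraries it was 18.0 ± 2.06 points, and the KO embryos (47.6 to 63.0%) no longer overlapped with the WT embryos (32.8 to 40.8%). The Hhip promoter, by contrast, was at 0.572% in WT and 0.822% in KO (adjusted p = 0.537). The Sufu body was at 70.0, 75 and 79.6% in WT, 73.9, 76.3 and 82.8% in HET and 76.4, 82.4 and 86.6% in KO embryos. It rose by 7.27 ± 1.09 points (adjusted p = 3.04e-06), the smallest p among the 19 regions, with 13 KO values beyond the WT range, and by 9.00 ± 0.89 points without the 3 doubted libraries. The Sufu promoter (0.387% in WT, 0.667% in KO, adjusted p = 0.0572) and flank (0.536% and 0.546%, adjusted p = 0.905) did not pass the test.

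Of the GLI factors, only Gli1 was called in the body over all embryos. It was at 26.7, 29.3 and 34.07% in WT, 27.5, 31.3 and 34.6% in HET and 28.3, 35.5 and 41.6% in KO embryos. The difference was 6.98 ± 1.22 points (adjusted p = 1.43e-05). Of the KO values, 13 exceeded the WT range. The lowest KO value and the highest WT value both came from libraries whose Tet1 level went against their label. Without the 3 libraries, the difference was 8.99 ± 0.90 points, and KO embryos (31.4 to 41.6%) did not overlap with WT embryos (26.7 to 30.7%). The Gli3 body was at 36.68% in WT and 41.6% in KO (4.81 ± 1.49 points, adjusted p = 0.075), and the Gli2 body at 47.9% and 49.3% (1.52 ± 1.68 points, adjusted p = 0.741). The promoters of Gli2 (0.836% and 0.901%) and Gli3 (0.625% and 0.590%) did not pass the test either, with adjusted p of 0.525 and 0.705.

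**Figure D1:**
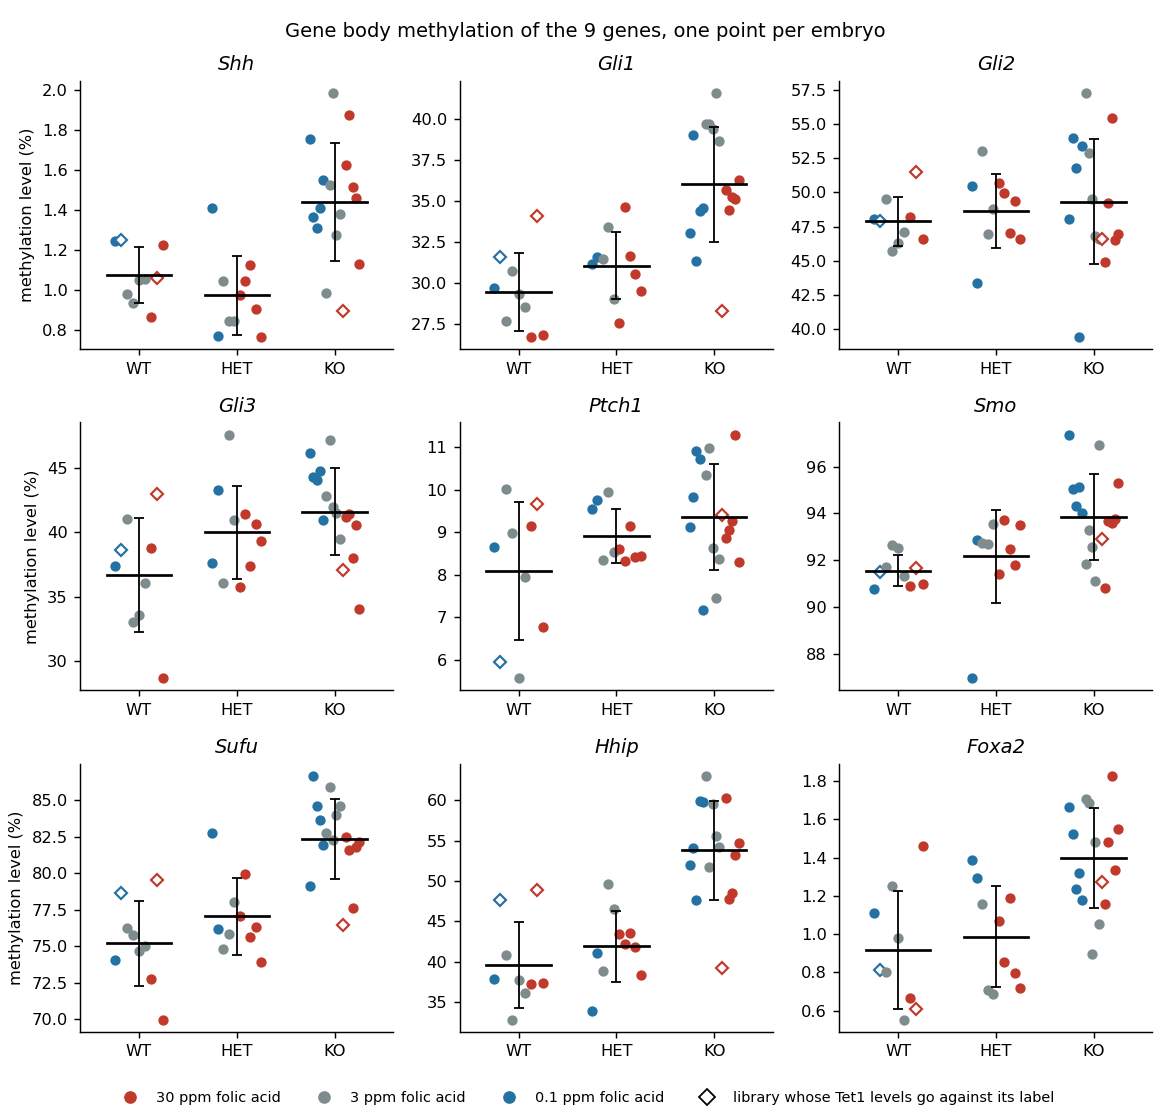
Methylation level (%) of the body of each of the 9 genes, with one point per embryo for WT, HET and KO, coloured by diet, and open diamonds for the 3 libraries whose Tet1 level went against their label. Lines and bars give the mean and SD, and the vertical axes differ between genes and do not start at 0. KO means lay furthest above WT at Hhip (53.8% against 39.6% in WT), Sufu (82.3% against 75.2%) and Gli1 (36.03% against 29.4%), and KO embryos overlapped broadly with WT at Gli2 and Ptch1.

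Within the genes, gains of 10 points or more over 1 kb were called in 4 places. Of 59 tiles of 1 kb, 4 were called higher in KO over all diets and none lower, beside 9.78% of all tiles called higher genome-wide. The 4 were those printed above, in Shh, Hhip, Gli1 and Gli3. No tile was called in Sufu, Smo, Foxa2 or Ptch1, whose regions hold 7 of the 10 calls, nor in Gli2. The median difference over the 59 tiles was 0.41 points, beside 1.47 points over all tiles, and 33 of the 59 had a WT level under 2%. None of those 33 was called, nor was any of the 11 tiles above 80% in WT, beside 0.196% and 0.221% of all tiles in these classes. Of the 3 tiles between 2 and 20%, 2 were called, and of the 12 between 20 and 80%, 2 were called. Over the genome 32.6% and 38.8% of tiles in these 2 middle classes were called. The WT level enters both the class and the difference, so these shares are a description.

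The Gli1 tile, with 7 CpGs in coding sequence 10.5 kb after the start, showed the widest gain, and its KO and WT values did not overlap. It was at 41.5, 48.3 and 61.9% in WT, 48.0, 53.8 and 69.7% in HET and 62.0, 73.3 and 82.4% in KO embryos. All 16 KO values exceeded the WT range, the lowest of them by less than 1 point, while the HET values overlapped with both. The highest WT and the lowest KO value both came from libraries whose Tet1 level went against their label. The difference was 23.9 ± 2.43 points (adjusted p = 6.64e-10), and 28.0 ± 1.97 points without the 3 libraries. Each of the 7 CpGs was higher in KO than in WT, and the largest change of any of the 865 CpGs was at the sixth of them in the printed sequence, from 36.62% in WT and 43.73% in HET to 71.2% in KO.

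The Shh tile held 3 CpGs in a coding exon 5.8 kb after the start, within a gene that was otherwise almost unmethylated. It was at 5.00, 6.38 and 12.0% in WT, 0, 7.42 and 14.1% in HET and 5.56, 23.2 and 42.5% in KO embryos. These levels rest on 27 to 353 methylation calls per embryo, summed over the 3 CpGs. A read that spans all 3 is counted 3 times, so fewer separate reads lie behind them. Only 1 of the 16 KO embryos, the library labelled KO on 30 ppm, replicate 1, lay within the WT range. The difference was 17.5 ± 3.24 points (adjusted p = 1.25e-07), and 19.4 ± 3.29 points without the 3 doubted libraries. From the 5′ to the 3′ end of the printed sequence, the means of its CpGs went from 8.44, 7.34 and 6.03% in WT to 31.5, 28.0 and 14.4% in KO.

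The Hhip tile held 3 intronic CpGs about 1.1 kb after the start and was nearly unmethylated in WT, at 1.87, 2.46 and 13.0%. HET embryos were at 1.98, 5.04 and 8.51%, and KO embryos at 5.26, 27.2 and 35.8%, with 14 of the 16 beyond the WT range. The highest WT value, 13.0%, came from the library labelled WT on 30 ppm, replicate 2, and without it the other 8 WT embryos were at or below 4.57%. The difference was 19.6 ± 2.99 points (adjusted p = 6.69e-08). From the 5′ to the 3′ end of the printed intron sequence, the means of its CpGs went from 8.78, 1.55 and 3.23% in WT to 42.12, 10.8 and 23.7% in KO. In the Hhip promoter sequence, the 7 measured CpGs stayed between 0.129 and 1.52% in WT and between 0.481 and 1.85% in KO.

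The Gli3 tile held 3 CpGs deep in an intron, 107.8 kb after the start. It was at 9.47, 20.7 and 32.4% in WT, 14.0, 19.3 and 30.5% in HET and 16.9, 37.3 and 54.0% in KO embryos. The groups overlapped, with 12 of the 16 KO values beyond the WT range, and the difference was 14.4 ± 3.15 points (adjusted p = 0.000154). Its mean without the 3 doubted libraries was 21.2% in WT and 37.3% in KO. Without the 3 libraries, 7 tiles were called, beside 12.2% of all tiles. These were the 4 already described, with a further intronic tile of Gli2 (10.4 ± 3.39 points), a coding tile of Gli3 (11.5 ± 3.83 points) and the neighbouring coding tile of Gli1 (11.2 ± 2.35 points).

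**Figure D2:**
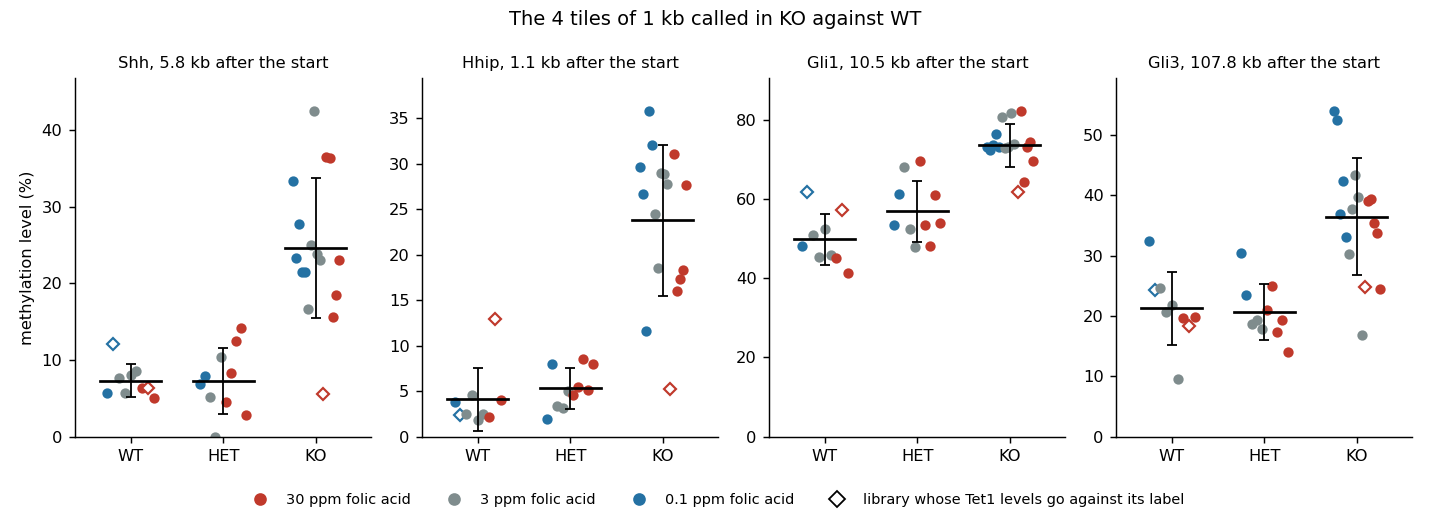
Methylation level (%) of the 4 called tiles in every embryo, by genotype and coloured by diet, with the mean and SD. KO means were 24.6% at Shh, 23.8% at Hhip, 73.7% at Gli1 and 36.5% at Gli3, against 7.27%, 4.08%, 49.9% and 21.2% in WT, and the open diamonds are the 3 libraries whose Tet1 level went against their label.

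Read CpG by CpG, 38 of the 865 sites had a KO mean at least 10 points above the WT mean and none had one at least 10 points below. Gli1 held 14 of the 38, Ptch1 and Sufu 5 each, Gli3 and Hhip 4 each, Gli2 3, Shh 2, Foxa2 1 and Smo 0. The share, 4.39%, stood beside 7.37% of all autosomal CpGs. Without the 3 doubted libraries there were 48 such sites (5.55%) and none 10 points below, beside 8.73% of all autosomal CpGs. Of the 652 sites under 2% in WT none gained 10 points, beside 0.309% of all CpGs in that class, nor did any of the 82 above 80% (0.777% of all CpGs in that class). Of the 41 between 2 and 20%, 6 (14.6%) did, beside 32.4%, and of the 90 between 20 and 80% 32 (35.6%) did, where 47.9% of all CpGs in that class did. Outside the called tiles, the largest gains were at an intronic CpG of Sufu (48.7% in WT, 77.2% in KO), a coding CpG of Hhip 82.9 kb after the start (49.1% and 73.7%) and a coding CpG of Gli1 8.31 kb after the start (41.9% and 65.0%).

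**Figure D3:**
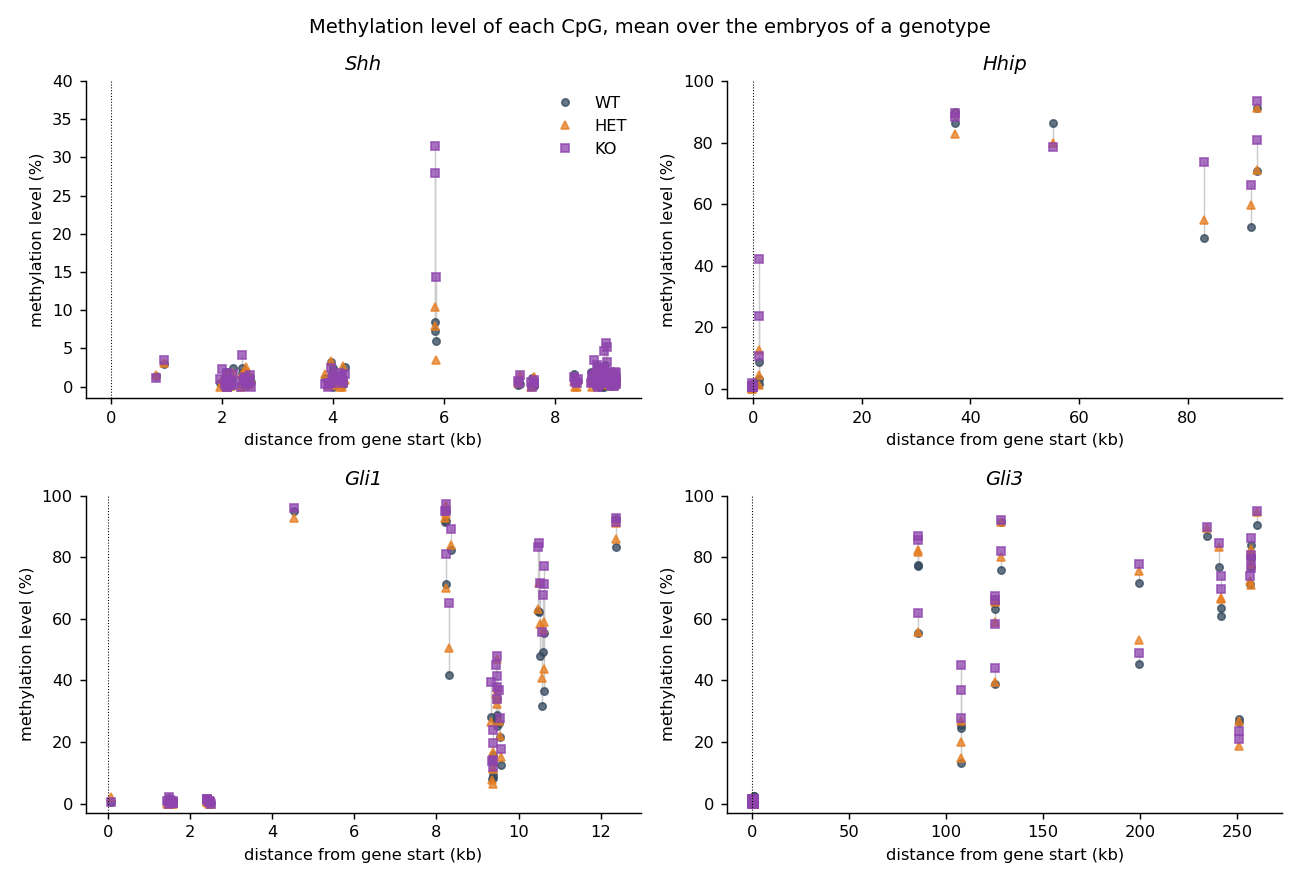
Mean methylation level (%) of every measured CpG of Shh, Hhip, Gli1 and Gli3 against its distance from the gene start (kb), with circles for WT, triangles for HET and squares for KO. The Shh axis stops at 40%. Most sites of Shh lie under 5% in all genotypes, apart from the 3 CpGs at 5.8 kb, and the CpGs at the starts of Hhip, Gli1 and Gli3 are near 0 in all 3.

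Sequence features that played no part in choosing the genes were compared for the tiles. The 4 called tiles had a median observed to expected CpG ratio of 0.283 and held 13 to 29 CpGs in the reference, whereas the 55 other tiles of the 9 genes had a median ratio of 0.486. For all tiles of the genome, the medians were 0.330 for those called and 0.373 for the rest. The consensus site of GLI proteins, searched as GACCACCCA or TGGGTGGTC on either strand, occurred once in the printed Gli1 sequence and in 4 of the 59 tiles, 3 of them uncalled tiles of Ptch1. It occurred in 1.01% of all 74133 tiles. None of the 9 RefSeq promoter sequences listed for 7 of the genes held it (Shh and Gli1 were not in that table), and 0.253% of all 32851 promoters did. A match describes letters and is no evidence of binding.

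On each diet taken alone, every called region was higher in KO, while the number of calls varied. On 3 ppm, 5 of 19 regions were called higher in KO, beside 27.9% of all regions. These were the bodies of Gli1, Hhip, Sufu and Shh and the Foxa2 promoter. The Gli1 body was at 27.6, 30.7, 29.3 and 28.5% in the 4 WT embryos and at 39.7, 39.7, 39.4, 41.6 and 38.66% in the 5 KO embryos, a difference of 10.8 ± 0.79 points (adjusted p = 2.74e-06). For Hhip, the WT embryos were at 40.8, 32.8, 37.8 and 36.1% and the KO embryos at 63.0, 51.7, 59.5, 55.5 and 54.2% (19.9 ± 2.69 points, adjusted p = 0.000183). For Sufu, WT embryos were at 74.7 to 76.2% and KO embryos at 82.3 to 85.9% (8.48 ± 0.80 points, adjusted p = 0.000106). None of these 3 bodies overlapped between genotypes on 3 ppm. The share of all regions or tiles without overlap is not given, here or in the other comparisons. Nothing particular to these genes is read from a lack of overlap. Leaving out KO replicate 3 lowered the count of called regions from 5 to 3.

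On 0.1 ppm, 2 of 19 regions were called higher in KO, beside 16.1% of all regions: the Gli3 body (6.01 ± 1.47 points, adjusted p = 0.0274) and the Sufu body (6.84 ± 2.45 points, adjusted p = 0.0478). Only 2 WT embryos entered this comparison, and one of them had a Tet1 level that went against its label. Without that library the Hhip and Sufu bodies were called (16.8 ± 5.77 and 9.14 ± 3.12 points), beside 14.5% of all regions, and the Gli3 body was not (6.62 ± 2.10 points, adjusted p = 0.0588). This fit holds a single WT embryo, so its spread comes from the KO embryos alone and the WT embryo is assumed to vary as they do. With litter as a block only the Gli3 body was called (7.04 ± 1.08 points, adjusted p = 0.0479). The count fell to 0 when WT replicate 1, KO replicate 2 or KO replicate 4 was left out, and to 1 without KO replicate 3.

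On 30 ppm, none of the 19 regions was called by the quasi-binomial test, beside 0.0034% of all regions. At an unadjusted p under 0.05 there were 4 (the bodies of Foxa2, Shh, Gli1 and Sufu), beside 21.0% of all regions. A t test from a linear fit on equally weighted CpGs gave 0 calls. Its variances were moderated as in limma, and the test is named limma below, though the package itself was not run on these levels. Both doubted libraries of this diet enter here. The Gli1 body was at 26.7, 34.07 and 26.8% in the 3 WT embryos, and at 28.3, 35.17 and 36.31% in KO embryos (lowest, median, highest). The second WT value and the lowest KO value are from those libraries. Without them 4 regions were called, beside 24.2% of all regions: the bodies of Hhip (15.6 ± 3.79 points), Sufu (9.74 ± 1.66 points), Gli1 (8.62 ± 0.52 points) and Shh (0.48 ± 0.22 points). Leaving out the KO library alone gave 3 calls, and leaving out the WT library alone gave 2.

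At the level of tiles, each diet alone gave calls. On 30 ppm 3 of 59 tiles were called, on 3 ppm 5 and on 0.1 ppm 4, all of them higher in KO, beside 3.8%, 11.5% and 7.87% of all tiles. The Shh tile was called on all 3 diets (16.7 ± 7.27, 18.7 ± 4.94 and 16.6 ± 4.14 points on 30, 3 and 0.1 ppm), as was the Gli1 tile (23.0 ± 5.43, 27.9 ± 2.70 and 18.8 ± 3.79 points). The Hhip tile was called on 3 ppm (22.9 ± 2.28 points) and 0.1 ppm (24.0 ± 6.98 points) and not on 30 ppm (12.9 ± 5.91 points, adjusted p = 0.0916). The Gli3 tile was called on 30 ppm (13.6 ± 4.03 points) and 3 ppm (14.5 ± 6.07 points) and not on 0.1 ppm (15.4 ± 7.23 points, adjusted p = 0.154). A second Gli1 tile was called on 3 ppm (15.5 ± 1.92 points), and an intronic Gli2 tile on 0.1 ppm (15.05 ± 7.17 points). With litter as a block, 1 tile was called on 30 ppm (Gli1, 23.5 ± 5.96 points) and 0 on 0.1 ppm. On 30 ppm the count was 0 without WT replicate 1, WT replicate 3 or KO replicate 5, 1 without KO replicate 2, 3, 4 or 6, and 5 without KO replicate 1. On 0.1 ppm it was 0 without WT replicate 1. Without the doubted libraries, 7 tiles were called on 30 ppm and 5 on 0.1 ppm, beside 10.8% and 8.24% of all tiles. The Shh, Hhip and Gli1 tiles were among them on both diets (20.4 ± 7.40, 18.99 ± 5.13 and 29.5 ± 5.06 points on 30 ppm), and the fit on 0.1 ppm again held a single WT embryo.

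Whether the KO effect itself differed between diets was tested as an interaction. None of the 19 regions passed for 30 against 3 ppm or for 0.1 against 3 ppm, where 0% of all regions passed in both, and limma on equally weighted CpGs also called 0. At an unadjusted p under 0.05 there was 1 member region in each, the Gli1 body, beside 5.57% and 4.09% of all regions. Its KO effect was 5.79 ± 2.46 points smaller on 30 than on 3 ppm (95% interval of the difference -11.1 to -0.51, adjusted p = 0.870) and 6.94 ± 2.05 points smaller on 0.1 than on 3 ppm (-11.4 to -2.47, adjusted p = 0.999). Without the 3 libraries the differences were -2.17 ± 1.06 and -5.98 ± 2.51 points, the latter with a single WT embryo on 0.1 ppm, assumed to vary like the other embryos. Among KO embryos alone, 30 against 3 ppm called 0 of 19 regions, beside 0% of all regions, with 3 at an unadjusted p under 0.05 (6.62% of all regions) and 0 by limma. The Gli1 body was at 38.66 to 41.6% on 3 ppm and at 28.3 to 36.31% on 30 ppm without overlap (-5.65 ± 1.41 points, adjusted p = 0.753), followed by Sufu (-3.57 ± 1.31 points) and Gli3 (-3.86 ± 1.73 points). Without the doubted KO library these were -4.47 ± 0.58, -2.79 ± 1.099 and -3.53 ± 1.88 points, and 0 of 19 regions were called, beside 0% of all regions. For 0.1 against 3 ppm in KO, 0 of 19 were called, beside 0% of all regions, with 1 at an unadjusted p under 0.05 (Gli1, 31.4 to 39.0% on 0.1 ppm, -5.34 ± 1.36 points), beside 4.58% of all regions, and 0 by limma. The 3 ppm embryos are shared by these comparisons.

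In WT embryos folic acid gave no call at any of the 19 regions, for 30 against 3 ppm or for 0.1 against 3 ppm. In both, 0% of all regions were called by the quasi-binomial test, 0 of the 19 had an unadjusted p under 0.05 (2.33% and 3.63% of all regions), and limma called 0. Without the doubted WT library on 30 ppm, 0 of 19 were called for 30 against 3 ppm, beside 0% of all regions. Without that on 0.1 ppm a single WT embryo remained on this diet, and nothing is read from that fit. With 3, 4 and 2 WT embryos the intervals were wide: the Hhip body differed by 4.29 points between 30 and 3 ppm (95% interval -5.40 to 14.0) and by 5.83 points between 0.1 and 3 ppm (-4.98 to 16.6), and the Gli1 body by 0.14 points (-5.47 to 5.76) and 1.60 points (-1.55 to 4.75).

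**Figure D4:**
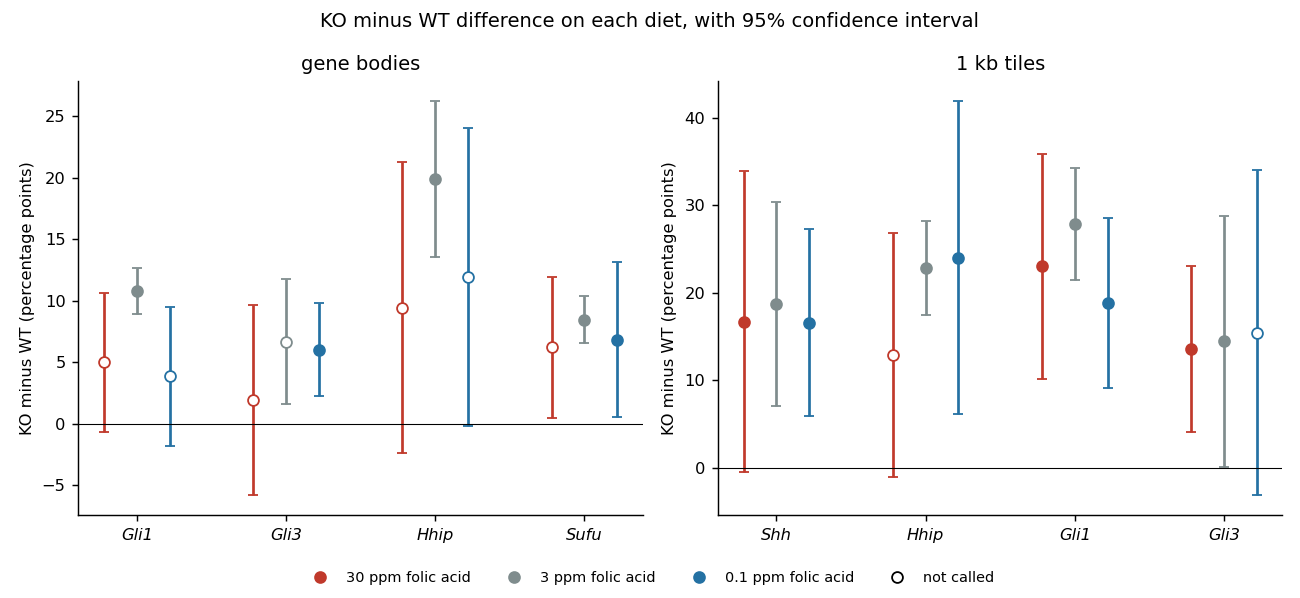
Difference between KO and WT (percentage points) on each diet for 4 gene bodies (left) and the 4 called tiles (right), with 95% confidence intervals and filled points where called. Calls come from the quasi-binomial test and intervals from the linear fit, and the interval of the called Shh tile on 30 ppm includes 0. All differences are positive, and the interval of the Gli1 body on 3 ppm (8.92 to 12.7 points) lies highest of the 3 diets.

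Embryos with 1 intact copy of Tet1 were called at none of the regions. Between HET and WT, 0 of 19 regions were called by the quasi-binomial test, beside 0.0577% of all regions, with 0 at an unadjusted p under 0.05 (10.6% of all regions) and 0 by limma. The difference was 2.18 points at the Hhip body (95% interval -2.93 to 7.29), 1.98 points at Sufu (-0.73 to 4.70) and 1.65 points at Gli1 (-0.68 to 3.97). Without the 2 doubted WT libraries these were 5.31 ± 1.88, 3.25 ± 1.198 and 2.82 ± 0.97 points (adjusted p of 0.155, 0.134 and 0.0517), and 0 regions were called, beside 4.2% of all regions. Of the tiles, 0 of 59 were called, beside 0.166% of all tiles, with 2 at an unadjusted p under 0.05 (11.1% of all tiles) and 0 by limma. The difference was -0.14 points (-3.78 to 3.49) at the Shh tile, 0.75 points (-1.92 to 3.41) at Hhip, -0.49 points (-4.64 to 3.66) at Gli3 and 7.12 points (-0.28 to 14.5) at Gli1. Without the 2 doubted WT libraries the Gli1 tile was called (10.2 ± 3.50 points, adjusted p = 0.0394), beside 1.08% of all tiles, and the 3 other tiles were not.

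KO embryos also differed from HET embryos. Here 7 of 19 regions were called, all higher in KO, beside 29.8% of all regions called in either direction. These were the bodies of Hhip (11.7 ± 2.17 points), Sufu (4.97 ± 1.03 points), Gli1 (4.93 ± 1.08 points), Shh (0.46 ± 0.11 points) and Foxa2 (0.40 ± 0.11 points), with the promoter and flank of Foxa2 (1.12 ± 0.23 and 2.06 ± 0.57 points). Without the doubted KO library the same 7 and the Ptch1 promoter (0.30 ± 0.10 points) were called, beside 33.8% of all regions, with 12.8 ± 1.89 points at Hhip, 5.36 ± 0.99 at Sufu and 5.50 ± 0.93 at Gli1. The KO embryos are shared with the comparison against WT.

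Among KO embryos, no part of the pathway was called between those with and without an NTD. None of the 19 regions was called between 5 NTD and 7 normal KO embryos by the quasi-binomial test, beside 0% of all regions, and limma called 0. At an unadjusted p under 0.05 there was 1 (5.07% of all regions), the Gli2 promoter, which was at 0.376, 0.678 and 0.857% in NTD and at 0.701, 1.16 and 1.35% in normal KO embryos (-0.44 ± 0.12 points, adjusted p = 0.949). The bodies differed by -1.78 points at Hhip (95% interval -9.68 to 6.13), by -0.84 points at Gli1 (-2.17 to 0.50) and by 1.61 points at Sufu (-0.55 to 3.76). Of the 59 tiles 0 passed the quasi-binomial test, beside 0.00135% of all tiles, with 3 at an unadjusted p under 0.05 (6.11% of all tiles) and 0 by limma. The Shh tile was at 21.5, 23.1, 27.8, 36.36 and 36.5% in the 5 NTD embryos and at 16.7, 23.1 and 42.5% (lowest, median, highest) in the 7 normal ones. Its difference was 3.32 points (-9.58 to 16.2), and those of the Hhip, Gli1 and Gli3 tiles were -1.36 (-13.0 to 10.3), 0.70 (-6.65 to 8.06) and -3.24 points (-16.8 to 10.3). Intervals of this width leave room for differences of 10 points or more at the Shh, Hhip and Gli3 tiles.

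The 4 inHB embryos labelled KO were not called apart from normal KO embryos either. They include the library on 30 ppm, replicate 1, whose Tet1 level went against its label. Of the 19 regions 0 were called by the quasi-binomial test, beside 0% of all regions, with 0 at an unadjusted p under 0.05 (5.31% of all regions) and 0 by limma. At the Hhip body the difference was -5.47 points (95% interval -13.2 to 2.22), and without the library labelled KO on 30 ppm, replicate 1, it was -3.22 ± 2.87 points and 0 regions were called, beside 0% of all regions. That library gave the lowest of the 4 inHB values at all 4 called tiles.

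**Figure D5:**
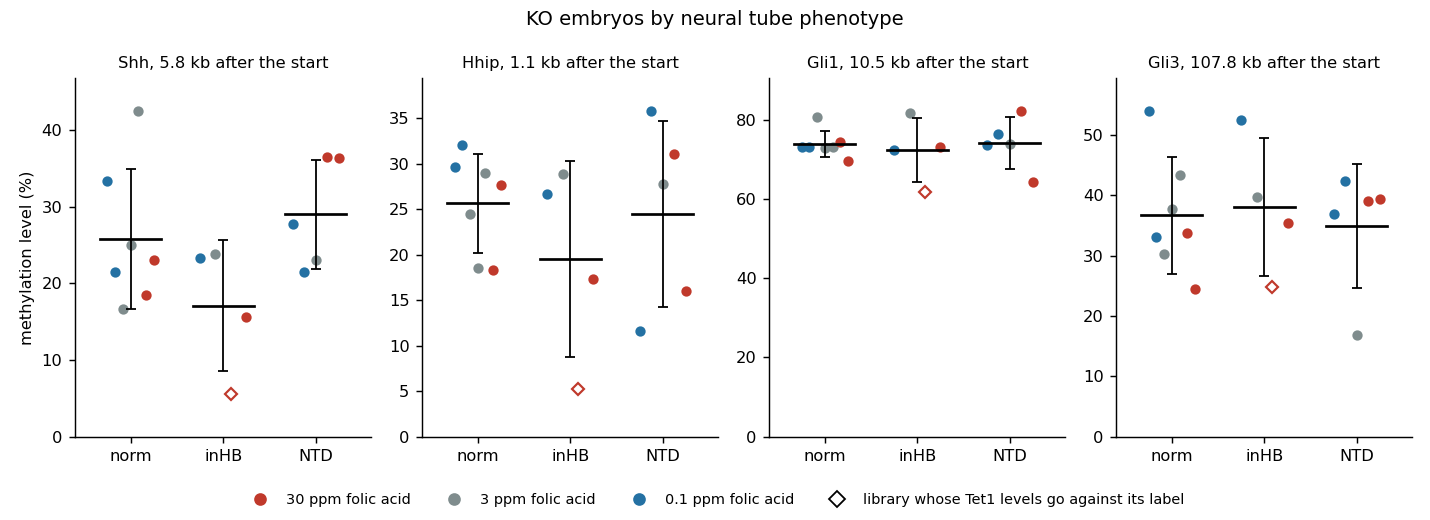
Methylation level (%) of the 4 called tiles in KO embryos by phenotype (normal, inHB, NTD), coloured by diet, with the mean and SD. The 3 groups overlap in every panel, and the lowest inHB point (open diamond) is the library labelled KO whose Tet1 level went against its label.

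The wider pathway was read from 50 further genes: ligands, receptors, processing and ciliary proteins, kinases and targets. In bodies 25 of 49 measured were called higher in KO and 0 lower, beside 49.8% of all bodies called higher. In promoters 8 of 45 were called higher and 1 lower, beside 29.9% and 0.244% of all promoters. Without the 3 doubted libraries, 26 bodies were called higher (23 of them shared), beside 56.3% of all bodies, with 9 promoters higher and 1 lower, beside 31.0% and 0.443%. The median difference was 2.09 points in bodies and 0.06 points in promoters, beside 2.66 and 0.16 points over all genes. By far the widest change was at the promoter of Hhatl, which encodes a protein related to the acyltransferase that modifies hedgehog ligands. It was at 29.7% in WT and 74.0% in KO (43.9 ± 4.48 points, adjusted p = 2.13e-08), and differed by 50.8 ± 1.86 points without the 3 doubted libraries. The bodies of Bcl2, an inhibitor of cell death, and of Disp3, a relative of the ligand transporter, rose by 16.0 ± 2.59 and 15.8 ± 1.85 points (19.6 ± 2.27 and 18.6 ± 1.35 without those libraries). The bodies of Ihh, a second hedgehog ligand, and Kif7, a ciliary kinesin that regulates GLI proteins, rose by 6.07 ± 1.43 and 5.88 ± 1.12 points (8.43 ± 1.23 and 7.29 ± 0.98). The promoter lower in KO was that of Ccnd1, the gene of cyclin D1 (0.699% in WT, 0.447% in KO, -0.22 ± 0.09 points). None of the 50 genes was called between HET and WT in promoter or body, beside 0.0153% of all promoters and 0.11% of all bodies. At an unadjusted p under 0.05 there were 3 promoters and 7 bodies, beside 6.72% and 14.6%. Nor was any called in NTD or inHB against normal KO embryos, beside 0% of all regions in both. In NTD against normal, 3 promoters and 5 bodies had an unadjusted p under 0.05, beside 4.53% of all promoters and 5.86% of all bodies. Without the 2 doubted WT libraries, HET embryos were called higher than WT at the Hhatl promoter (11.1 ± 2.06 points, adjusted p = 0.00241) and at 4 bodies, beside 1.79% of all promoters and 6.82% of all bodies. The bodies were those of Bcl2 (8.26 ± 1.84 points), Disp3 (5.52 ± 1.28 points), Gpr161 (2.70 ± 0.65 points) and Scube3 (2.74 ± 0.49 points), the last a pair named after their values were seen.

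Gene bodies whose level followed that of Sufu most closely over the 35 embryos were Neurl1b (Pearson r = 0.89), Sec31b (0.88), Shank2 (0.88), Rin3 (0.87) and Insrr (0.87). All 5 were higher in KO than in WT, for example 42.93% against 22.1% at Neurl1b, and the points share the genotype, the library and its depth, so the r values are descriptive.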

How the data were processed

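Per the submitters' processing notes, the authors used Trim Galore 0.6.10, Bismark 0.24.1, UMI-tools, methylKit 1.26.0, R 4.3.1, ChIPseeker 1.36.0, bedtools 2.31.0 and deepTools 3.5.5 with mm10. The deposited files give per CpG the methylated fraction and the count of reads, at 2 or more reads; their product lay within 0.01 of a whole number on every line. The authors' lists of differentially methylated regions hold their own findings and were not used.

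CpGs with 5 or more reads in each of the 35 embryos (933385) were kept. Methylated and unmethylated reads were summed over promoter, body, flank (GENCODE vM21) or 1 kb tile. Groups were compared with a quasi-binomial logistic model, with diet as covariate and the dispersion moderated as in limma 3.58.1 (two-sided F test, Benjamini-Hochberg adjustment over all regions or tiles, at least 3 CpGs each), tested on simulated data. Differences, SE and 95% intervals came from a linear fit to the levels. Intervals over reads cover counting error only. Python 3.11.15, numpy 2.4.6, scipy 1.17.1, pandas 2.3.3 and matplotlib 3.10.9 were used. Mean coverage was 10.9 to 61.5 per library. Replicates were separate embryos. Litter numbers in the labels (12 litters) pair embryos across genotypes, and litter as a block was an alternative, with coverage of 10, equal weights per CpG, a shared dispersion, a spread filter, another promoter window and each embryo left out.

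All 9 genes are named, with the called tile of largest gain per gene, the 5 largest called changes per direction among 50 other pathway genes, and the 5 bodies most correlated with the member region of smallest p. The members and lists were chosen with earlier results of these data known. 1 gene of the marker lists is not reported here.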

Additional observations from a re-analysis of the deposited data

Results flagged for a closer look

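Within the genotype and diet groups of 4 to 6 embryos, the highest or lowest value was set against the spread of the others by Dixon's criterion. Of 115 group and region combinations 8 (6.96%) passed, where chance gives about 1 in 20. Of the 8, 5 are at the Sufu promoter and flank, whose levels rest on few methylated reads.

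The Gli1 body of the KO embryo on 30 ppm, replicate 1, was at 28.3%, apart from the other 5 of its group (34.4 to 36.31%), and this library also had a Tet1 level that went against its label. The Gli1 tile of the KO embryo on 0.1 ppm, replicate 4, was at 76.6%, apart from 72.6 to 73.7%. The Ptch1 body of the KO embryo on 30 ppm, replicate 5, was at 11.3%, apart from 8.30 to 9.41%. At the Sufu flank, the HET embryo on 30 ppm, replicate 5, was at 0.140% (the others 0.584 to 0.758%), the KO embryo on 0.1 ppm, replicate 2, at 0.174% (0.629 to 0.780%) and the WT embryo on 3 ppm, replicate 1, at 0.804% (0.476 to 0.526%). At the Sufu promoter, the HET embryo on 30 ppm, replicate 2, was at 1.69% (0.404 to 0.665%) and the KO embryo on 30 ppm, replicate 4, at 1.90% (0.271 to 0.771%).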

How the results depend on the processing

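The bodies of Hhip, Gli1 and Sufu kept their call in KO against WT over diets under every alternative and every embryo left out. The 4 tiles did so too under the alternatives that could test them (the Shh tile was not testable at a coverage of 10), except at a difference of 20 points or more, where 1 tile was called over diets, 1 on 30 ppm, 2 on 3 ppm and 1 on 0.1 ppm. Leaving out regions with an SD under 2 points, which removes the weakly methylated ones by construction, gave 4 regions over diets, 3 on 3 ppm and 3 in KO against HET. Without the 3 libraries whose Tet1 level went against their label, 4 regions were called on 30 ppm, 7 tiles over diets, 7 tiles on 30 ppm and 1 tile in HET against WT. Without them, a setting chosen for these genes and for the CpG counts after seeing the data, the 50 other pathway genes gave 1 promoter and 4 bodies in HET against WT, where there had been 0. With 1 dispersion shared by all 9 groups there were 3 regions on 30 ppm, 4 on 0.1 ppm and 5 tiles on 30 ppm. With CpGs weighted equally there were 0 tiles on 30 ppm and 1 on 0.1 ppm. With litter as a block there were 1 region on 0.1 ppm, 1 tile on 30 ppm and 0 tiles on 0.1 ppm, and no other count moved by over 1.5 times. With the other promoter window, 1 region was called on 0.1 ppm. The Foxa2 flank turned to -0.36 points at a coverage of 10, and the Foxa2 promoter difference was 1.54 points in the other promoter window. The cause of these shifts was not tested.

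With single embryos left out, the counts of called regions ran from 9 to 11 over diets, from 0 to 3 on 30 ppm, from 3 to 5 on 3 ppm, from 0 to 2 on 0.1 ppm and from 7 to 8 in KO against HET. Those of tiles ran from 4 to 5 over diets, from 0 to 5 on 30 ppm, from 4 to 6 on 3 ppm and from 0 to 5 on 0.1 ppm. The comparisons of diets, of HET with WT regions and of phenotypes gave 0 throughout. Litter could not be fitted between diets within 1 genotype, since litters lie within diets, or for NTD against normal KO embryos, since no litter holds both. Depth limits the sparse regions most. The Shh tile rests on 27 to 353 methylation calls per embryo, in which a read that spans its 3 CpGs is counted 3 times. Promoters at levels under 1% rest on few methylated reads. Replicate numbers only count the embryos of a group and mark no pair, so litter was the block.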
